A study of Mus musculus with 9 samples.

Results

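The cyclins, cyclin-dependent kinases (CDKs) and regulators of mitosis were examined as a listed set of 53 genes in mouse 2-cell embryos. All 53 were rows of the count table, which held 24454 genes. A table row was tested when it had enough counts, which left 51 of the 53 members among 16964 genes tested. RNA was sequenced from 9 libraries of embryos of the ICR strain, an outbred stock, grown in culture to the 2-cell stage, with 3 embryos pooled in each library. The control group of 3 libraries is named as control, with no treatment listed. The high glucose group of 3 libraries was loaded with glucose, at a dose that the labels do not give. The ZGW serum group of 3 libraries was loaded with glucose too and was also given rat serum carrying ZGW, a drug that the labels name by these letters alone. Drug-free rat serum is not mentioned for the other groups, so effects of serum and of ZGW cannot be told apart. The embryos' parents and matings are not named either, so a p-value here reflects the variation among pooled samples, which may in part be technical.

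The cell cycle is driven by CDKs, kinases that are active when bound to a cyclin whose level rises and is then removed. Cyclin A and cyclin B with CDK1 drive mitosis, while cyclin D and cyclin E with CDK4, CDK6 and CDK2 act before and during DNA synthesis. WEE kinases hold CDK1 inactive and CDC25 phosphatases release it. The anaphase-promoting complex (APC/C), a ubiquitin ligase, marks cyclin B and securin for removal once every chromosome is attached to the spindle. In the mouse embryo the first cycles run largely on RNA stored in the oocyte, and at the 2-cell stage that store is being degraded while the embryo's own genes are switched on. A level of RNA in these data is therefore a sum of stored and newly made transcripts, and fewer copies per cell and fewer cells of a kind cannot be told apart in pooled embryos.

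Library totals ranged from 11934924 to 16916343 counts. Levels are given as CPM, counts relative to the library total, with library factors computed across all genes. All 8 genes of the list of 2-cell markers were detected, with a summed level of 2860 to 7266 CPM in control libraries, 4665 to 9169 CPM in high glucose libraries and 1609 to 3400 CPM in ZGW serum libraries. The 8 genes of the oocyte store summed to 15759 to 23780 CPM in control. Under high glucose the sum was 11062 to 15469 CPM, below every control library. With ZGW serum it was 12521 to 37021 CPM, which overlapped both. Taken singly, 5 of the 8 were higher and 3 lower under high glucose than in control, with a median log2 fold change of 0.29. The lower sum therefore does not describe most of this list. The 12 markers of cumulus and granulosa cells summed to 11.04 to 34.6 CPM in control, 4.00 to 12.9 CPM under high glucose and 4.74 to 8.09 CPM with ZGW serum, where every library was below the control libraries. All 5 of these that could be tested were lower than in control in both other groups (medians -1.99 and -1.50), with Igfbp5 at an unadjusted p under 0.05 in both, while Ptx3 was at 0 in control and Fshr at 0 with ZGW serum. The 8 blood cell markers summed to 128 to 196 CPM in control, 63.9 to 171 CPM under high glucose and 178 to 268 CPM with ZGW serum, where every library was above the high glucose libraries. Of 4 blood cell markers tested, 2 were higher and 2 lower under high glucose than in control. With ZGW serum 3 were higher and 1 lower than in each other group. At an unadjusted p under 0.05, Laptm5 was higher under high glucose than in control and Lyz2 higher with ZGW serum than in control. Ptprc was at 0 in control and high glucose, and Alas2 at 0 under high glucose. The 6 sperm markers summed to 8.48 to 12.8 CPM in control and 3.67 to 9.61 CPM under high glucose. With ZGW serum the sum was 13.7 to 25.7 CPM, where every library was above the other 6. Of 5 sperm markers tested, 3 were higher and 2 lower with ZGW serum than in each other group. Against high glucose Prm2 was higher at an unadjusted p under 0.05, and against control 0 of the 5 reached it. Markers of blastocyst lineages summed to 33.8 to 79.2 CPM in control and 26.4 to 36.4 CPM under high glucose. With ZGW serum the sum was 26.9 to 27.6 CPM, below every control library. Of these 6 markers, 3 were lower and 3 higher with ZGW serum than in control, with a median log2 fold change of -0.07. Only 1 of them had a mean above 10 CPM in each group. The part of these markers in the members' values was not tested. Single libraries stood out for the members: the third ZGW serum library held the highest level of 11 of the 51 tested (14.4% of all genes were highest in it). The first control library and the second ZGW serum library each held the lowest level of 11 of 51 (16.1% and 10.6% of all genes). The summed level of the members was 15540 CPM in the third ZGW serum library and 8825 to 11880 CPM in the other 8. Pttg1 alone made up 6415 CPM of the sum in the third ZGW serum library, against 1892 to 3090 CPM in the other 8.

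Most members were detected, at levels that differed widely. Of 53 members, 39 had a mean above 10 CPM in every group and 50 were detected in all 9 libraries. The same counts were not taken over all genes, so they do not set the members apart from other genes. Levels are compared between genes per kilobase of exon, here the length of all annotated exons joined. On that scale securin, Pttg1, was the highest member at 1458 CPM per kb over the 9 libraries. It was followed by the survivin gene Birc5 at 455, the oocyte kinase gene Wee2 at 313, the checkpoint gene Mad2l1 at 236 and cyclin B1, Ccnb1, at 169 CPM per kb. Fbxo5, the APC/C inhibitor also called EMI1, came next with 101 CPM per kb. In control, Pttg1 stood at 1245 ± 193 CPM per kb (SD, n = 3), Birc5 at 439 ± 103, Mad2l1 at 282 ± 32.7 and Wee2 at 267 ± 72.01. The last 2 of these lay within their spread of each other, while Pttg1 was above the other 52 members in every group mean. At the other end, 21 members were below 5 CPM per kb. Among them were the G1 genes Ccnd1 at 1.10 and Cdk6 at 0.772 CPM per kb.

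**Figure D1:**
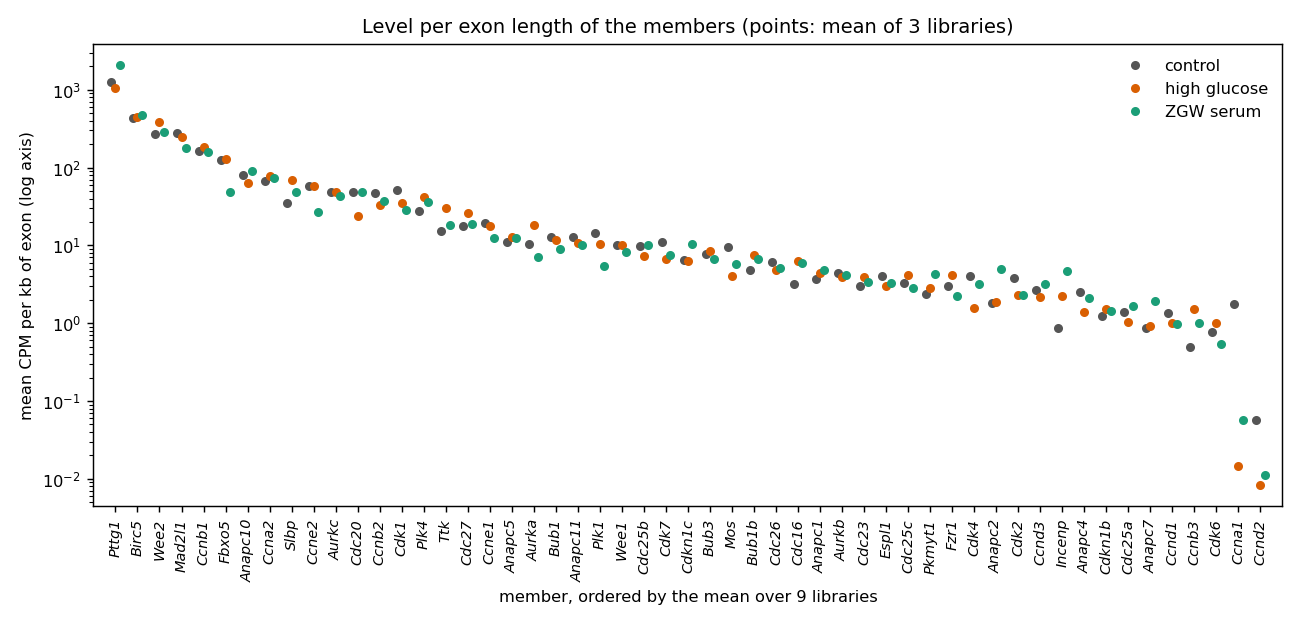
Mean level of each of the 53 members in each group, in CPM per kilobase of exon on a log axis; members are ordered by their mean over 9 libraries and each point is the mean of 3 libraries. Pttg1 leads at 1458 CPM per kb over all libraries, and Ccna1 and Ccnd2 lie at the bottom.

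No member passed the threshold in any of the 3 comparisons, and neither did any other gene. With edgeR's quasi-likelihood test and Benjamini-Hochberg adjustment over 16964 genes, 0 genes had an adjusted p under 0.05 in each comparison, a background of 0%. At an unadjusted p under 0.05 the test gave 1253 genes for high glucose against control, 1473 for ZGW serum against high glucose and 1673 for ZGW serum against control. DESeq2 on the same counts called 129, 241 and 348 genes at an adjusted p under 0.05, and limma-voom with quality weights called 0, 0 and 1. Differences below are therefore given as values with their errors. Log2 fold changes carry the standard error of the fit, and adjusted p-values are those of edgeR unless another tool is named.

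Between high glucose and control the members were split evenly. Of 51 tested, 25 were lower and 26 higher under high glucose, with a median log2 fold change of 0.01 against -0.02 over all genes tested. Unadjusted p under 0.05 was reached by 1 lower member, Cdc20, where the background over all genes was 3.5% lower, and by 3 higher members, Wee2, Ttk and Slbp, where it was 3.88% higher. The 3 libraries of each group did not overlap for 2 lower members, Cdc20 and Cdk7, beside a background of 6.91%. They did not overlap for 3 higher members, Incenp, Ttk and Slbp, beside 6.84%. As shares of 51 members these counts were near the background or below it.

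When ZGW serum was set against high glucose, 30 of 51 members were lower and 21 higher, with a median of -0.08 against 0.00 over all genes. The lower members with unadjusted p under 0.05 were Fbxo5, Ccne2 and Aurka (background 4.89%), and the higher ones were Cdc20 and Pttg1 (background 3.8%). Groups did not overlap for 4 lower members, Ccne2, Wee2, Aurka and Fbxo5, beside 8.26% of all genes. They did not overlap for 2 higher members, Cdc20 and Pttg1, beside 9.08%. These shares too were near the background or below it.

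Against control, ZGW serum gave 26 lower and 25 higher members, with a median of -0.07 against 0.00. Lower with unadjusted p under 0.05 were Fbxo5, Ccne2, Cdk1 and Plk1 (background 5.65%), and higher were Incenp and Pttg1 (background 4.21%). The groups did not overlap for 4 lower members, Ccne2, Cdk1, Plk1 and Fbxo5, beside 7.3%. They did not overlap for 5 higher members, Cdkn1c, Pkmyt1, Incenp, Anapc2 and Pttg1, beside 9.02%. As shares of 51 these counts lay near the background. The ZGW serum comparisons share the ZGW serum libraries, and each pair of comparisons shares a group, so a gene seen in both is not seen independently.

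**Figure D2:**
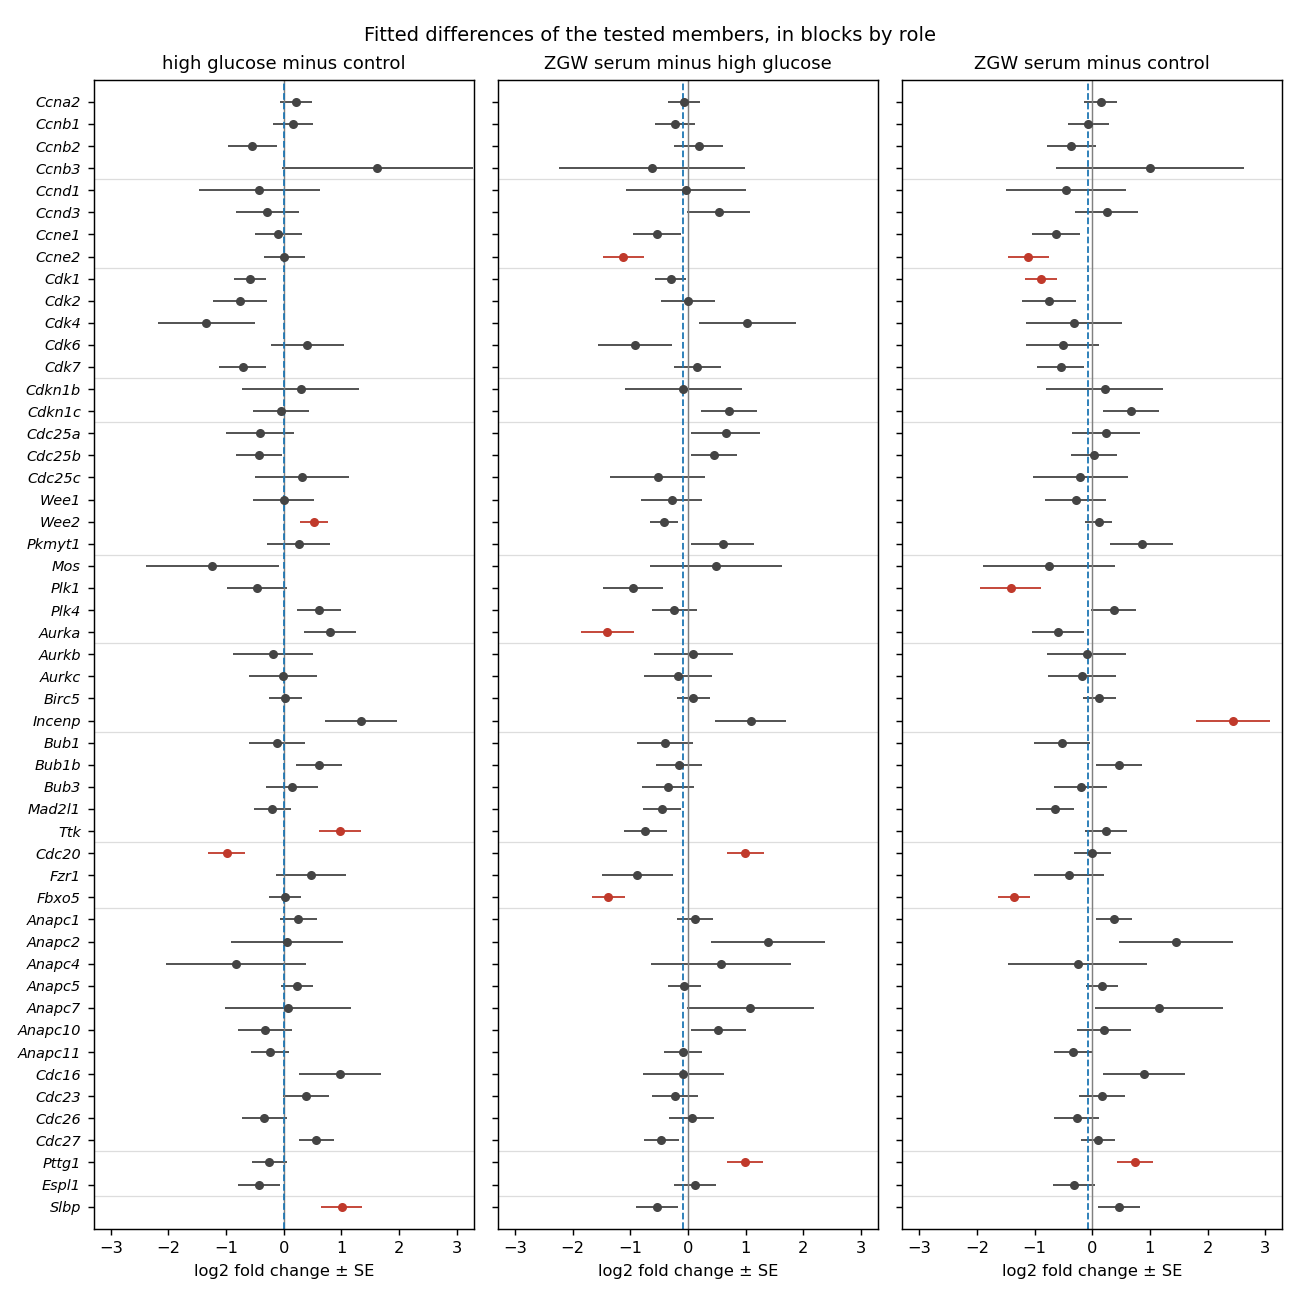
Log2 fold change with its standard error (horizontal axis) for each of the 51 tested members, in blocks by role, for the 3 comparisons; red marks an unadjusted p under 0.05 and the dashed line is the median of the members. The medians lie at 0.01, -0.08 and -0.07, and the members spread to both sides of 0 in each comparison.

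Few members set 1 group apart from both others. Libraries of the ZGW serum group all lay below the other 6 libraries for Ccne2 and Fbxo5 (2 of 51 members, background 2.52%) and above them for Pttg1 (1 of 51, background 3.32%). High glucose libraries all lay below the rest for Cdc20 (1 of 51, background 2.18%) and above them for 0 members (background 1.8%). Control libraries all lay below the rest for Incenp (1 of 51, background 1.97%) and above them for 0 members (background 2.05%).

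**Figure D3:**
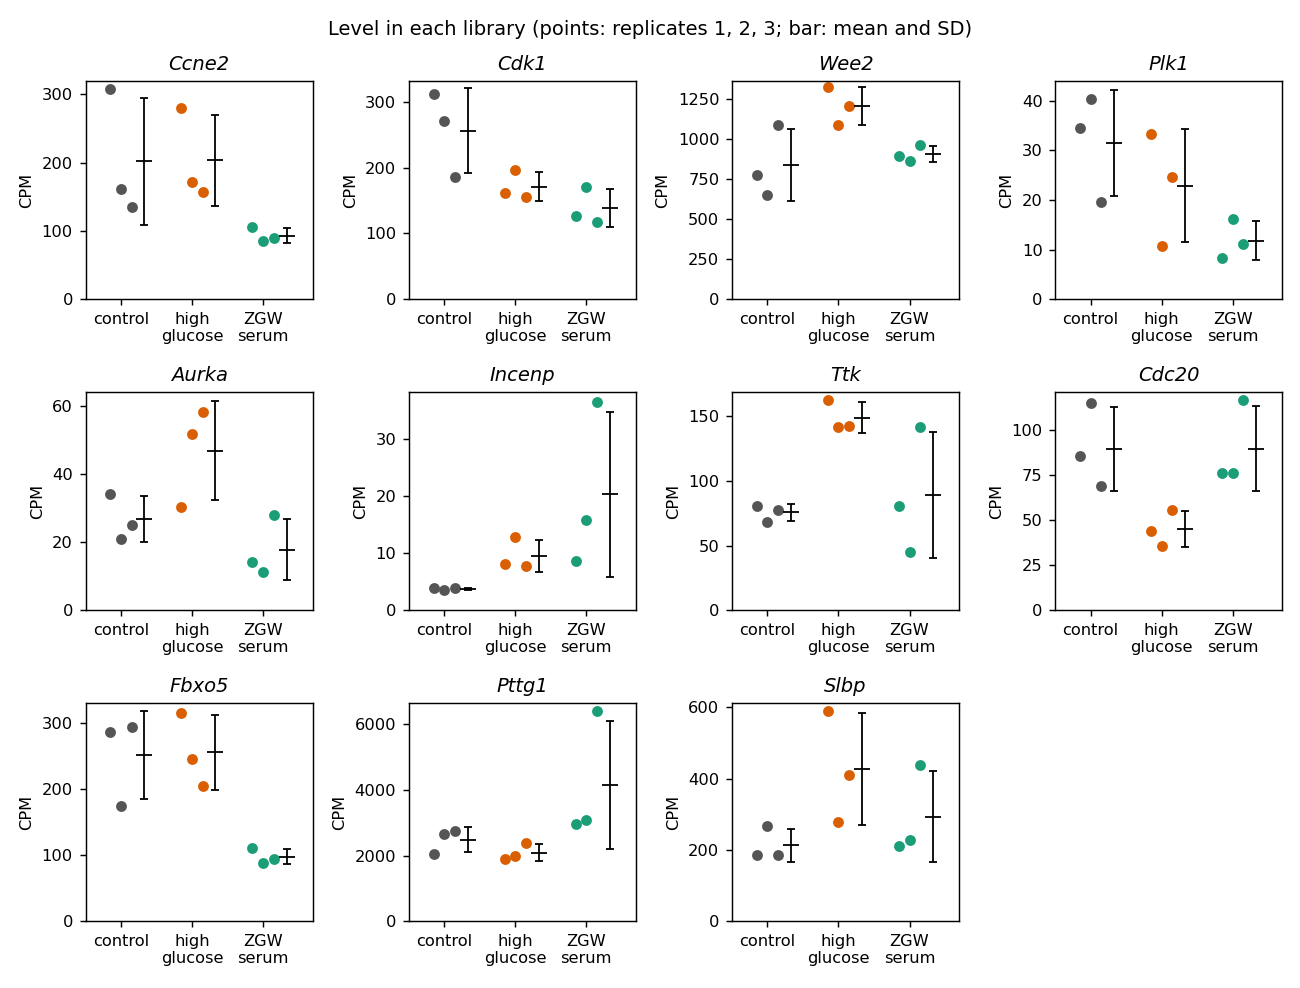
Level in each library, in CPM from 0, of the 11 members with an unadjusted p under 0.05 in at least 1 comparison; points are replicates 1, 2 and 3 and the bar beside them is the mean with its SD (n = 3). Fbxo5 and Ccne2 are lowest in all 3 ZGW serum libraries, Cdc20 is lowest in all 3 high glucose libraries, and the third ZGW serum library is far above the others for Pttg1 and Incenp.

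Fbxo5 had the smallest p-values of any member. It encodes EMI1, which binds the APC/C and blocks it, so that cyclins can accumulate before mitosis. The gene lies at chr10:5799160-5805600 on the minus strand of GRCm38 (mm10). Its level was 287, 175 and 294 CPM in the control libraries, 316, 246 and 205 CPM in the high glucose libraries and 110.4, 89.1 and 94.9 CPM in the ZGW serum libraries. All 3 ZGW serum libraries were below all 6 others, while control and high glucose overlapped. The group means were 252 ± 66.6 CPM (SD, n = 3), 256 ± 56.2 CPM and 98.2 ± 11.02 CPM. Between ZGW serum and high glucose the log2 fold change was -1.38 ± 0.28 (adjusted p = 0.37), a level 2.6-fold lower. Between ZGW serum and control it was -1.36 ± 0.28 (adjusted p = 0.338). High glucose and control differed by 0.02 ± 0.28. DESeq2 gave adjusted p-values of 0.00277 against high glucose and 0.00155 against control, so the call for Fbxo5 depended on the tool. Over all 14 alternatives of the processing the difference from high glucose lay between -1.52 and -1.20, with adjusted p from 0.00277 to 0.851. The difference from control lay between -1.57 and -1.21, with adjusted p from 0.00155 to 0.726.

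Cdc20 and Cdh1, the product of Fzr1, are the coactivators that bring substrates to the APC/C, Cdc20 in mitosis and Cdh1 at its end and in G1. Cdc20 (chr4:118432901-118437352, minus strand) stood at 85.6, 115 and 68.9 CPM in the control libraries, 44.2, 35.8 and 55.5 CPM in the high glucose libraries and 76.5, 76.1 and 117 CPM in the ZGW serum libraries. High glucose libraries were all below the other 6, and the control and ZGW serum libraries overlapped. The log2 fold change was -0.99 ± 0.32 from control to high glucose (adjusted p = 0.627) and 0.99 ± 0.32 from high glucose to ZGW serum (adjusted p = 0.471). Both differences use the same high glucose libraries. Control and ZGW serum differed by 0.00 ± 0.32. Of its 50-base stretches, 10.6% also occur in transcripts of other genes, among them Gm7856, and counts from those could not be separated here. Fzr1, at group means of 13.3 ± 2.65, 18.5 ± 12.5 and 10.1 ± 3.83 CPM, had adjusted p-values from 0.733 to 0.909. As a share of the counts of Fbxo5 and Fzr1 together, Fbxo5 held 86.4% to 97.9% in every library, and the groups overlapped in each comparison. Such shares are of counts, not per length, and are compared between libraries alone.

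The 11 core subunits of the APC/C showed no comparison with an unadjusted p under 0.05. Of 11 tested, 4 were lower and 7 higher under high glucose than in control, 5 lower and 6 higher with ZGW serum than under high glucose, and 3 lower and 8 higher with ZGW serum than in control. The medians were 0.08, 0.06 and 0.17. Anapc10, the subunit of highest level per kilobase, which helps to recruit substrates, read 466, 437 and 247 CPM in the control libraries, 464, 166 and 287 CPM in the high glucose libraries and 409, 212 and 699 CPM in the ZGW serum libraries. These libraries overlapped in all comparisons and spread widely within each group. Cdc27, a scaffold subunit that binds the coactivators, had the smallest p of the group. It read 91.1, 98.4 and 140.0 CPM in the control libraries, 189.9, 109 and 189 CPM in the high glucose libraries and 139.9, 114 and 99.8 CPM in the ZGW serum libraries, a log2 fold change of 0.57 ± 0.30 under high glucose (adjusted p = 0.723). Anapc2, the cullin subunit of the catalytic core, was low and uneven at 3.28, 4.03 and 11.3 CPM in the control libraries, 0.757, 16.6 and 2.12 CPM in the high glucose libraries and 16.3, 16.2 and 18.5 CPM in the ZGW serum libraries. Its ZGW serum libraries were all above the control libraries (log2 fold change 1.45 ± 0.99, adjusted p = 0.661). Anapc1, Anapc4, Anapc5, Anapc7, Anapc11, Cdc16, Cdc23 and Cdc26 overlapped between groups in every comparison, with mean levels of 67.5 ± 8.75 CPM for Anapc5 and 4.45 ± 4.86 CPM for Anapc7 in control (SD, n = 3). Cdc23 is uncertain, with 11.9% of its 50-base stretches shared, among others with Kif20a.

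Securin, Pttg1, holds separase inactive until the APC/C removes it, and separase, Espl1, then cuts the cohesin that joins sister chromatids. Pttg1 (chr11:43420250-43426251, minus strand) read 2048, 2652 and 2769 CPM in the control libraries, 1892, 2006 and 2394 CPM in the high glucose libraries and 2980.4, 3089.6 and 6415 CPM in the ZGW serum libraries. All ZGW serum libraries were above all others, and the third ZGW serum library was far above the other 8. The log2 fold change was 0.99 ± 0.31 against high glucose (adjusted p = 0.465) and 0.74 ± 0.31 against control (adjusted p = 0.482). Without the third ZGW serum library the values were 0.56 (adjusted p = 0.668) and 0.31 (adjusted p = 0.783). Espl1 overlapped between groups throughout, with means of 35.5 ± 9.41, 26.5 ± 2.62 and 28.6 ± 6.65 CPM.

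Among the mitotic cyclins, cyclin B1 and cyclin A2 had the highest levels per kilobase, 169 and 72.2 CPM per kb. Ccnb1 (chr13:100778650-100786570, minus strand), the main partner of CDK1 at entry into mitosis, read 474, 841 and 776 CPM in the control libraries, 836, 716 and 778 CPM in the high glucose libraries and 533, 411 and 1049 CPM in the ZGW serum libraries. The groups overlapped in all comparisons, and the fitted differences were 0.16 ± 0.35, -0.23 ± 0.35 and -0.07 ± 0.35. Of its 50-base stretches, 23.4% also occur in other transcripts, among them the copies Ccnb1-ps, Gm12856 and Gm8416. Ccnb2, another B cyclin, read 50.4, 107 and 62.05 CPM in the control libraries, 64.8, 48.7 and 36.95 CPM in the high glucose libraries and 71.8, 29.6 and 69.3 CPM in the ZGW serum libraries, and it differed by -0.54 ± 0.43 between high glucose and control (adjusted p = 0.825). As a share of the counts of both B cyclins, Ccnb2 held 9.60%, 11.3% and 7.41% in the control libraries, 7.19%, 6.37% and 4.53% in the high glucose libraries and 11.9%, 6.73% and 6.20% in the ZGW serum libraries. Control and high glucose shares did not overlap, with a mean difference of -3.40 percentage points. The two-sided exact permutation p was 0.1, the smallest that 3 libraries against 3 can give, and the adjusted value over the 21 comparisons of shares was 0.98. Ccna2 lay at 271 ± 93.3, 314 ± 31.8 and 299.8 ± 40.5 CPM and Ccnb3 at 2.26 ± 3.73, 6.99 ± 7.09 and 4.54 ± 1.77 CPM (SD, n = 3), both overlapping. The level of Ccna2 is uncertain, since 11.4% of its 50-base stretches also occur in transcripts of other genes, among them Exosc9. Ccna1, the germ line cyclin A, was too low to test. It had 133 counts in the third control library, or 9.72 CPM, and 0 to 4 counts in each of the other 8.

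The cyclins of G1 and S phase were led by cyclin E2, at 47.5 CPM per kb against 16.4 for cyclin E1. Ccne2 (chr4:11191351-11204779, plus strand), a partner of CDK2 at the start of DNA synthesis, read 308, 161 and 136 CPM in the control libraries, 280.4, 172 and 158 CPM in the high glucose libraries and 106, 84.6 and 89.3 CPM in the ZGW serum libraries. All ZGW serum libraries were below all others, and the first control and first high glucose libraries were the highest of their groups. The differences were -1.12 ± 0.36 against high glucose (adjusted p = 0.465) and -1.11 ± 0.36 against control (adjusted p = 0.409), while high glucose and control differed by 0.01 ± 0.35. Without the first control library the difference from control was -0.68 (adjusted p = 0.621). Ccne2 overlaps the gene Ints8 on the other strand, with 14.4% of its 50-base stretches shared, and whether counting used the strand is not given in the sources used here. Ccne1, its paralog, was lower in mean with ZGW serum as well, at 42.7, 32.8 and 77.1 CPM in the control libraries, 47.2, 47.6 and 48.1 CPM in the high glucose libraries and 25.8, 48.9 and 23.5 CPM in the ZGW serum libraries, but its groups overlapped (adjusted p = 0.759 and 0.642). Ccne2 held 63.4% to 87.8% of the counts of the 2 genes in a library, with overlapping groups. The D cyclins, which link growth signals to the cycle, were low. Of these, Ccnd1 and Ccnd3 had means of 6.30 ± 4.01 and 23.4 ± 12.2 CPM in control, Ccnd2 had at most 19 counts in a library and was not tested, and none had an unadjusted p under 0.05. The level of Ccnd1 is uncertain, with 21.6% of its 50-base stretches shared.

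All 5 CDKs were lower with ZGW serum than in control (49.97% of all genes), with a median log2 fold change of -0.55. Under high glucose 4 of 5 were lower than in control (51.0% of all genes), with a median of -0.71. Only Cdk1, with ZGW serum against control, had an unadjusted p under 0.05, and the group was not tested as a set. Cdk1 (chr10:69335146-69352938, minus strand), the kinase of mitosis, read 312, 271 and 185 CPM in the control libraries, 162, 196 and 155 CPM in the high glucose libraries and 127, 171 and 118 CPM in the ZGW serum libraries. ZGW serum libraries were all below the control libraries, while high glucose lay between and overlapped both. The log2 fold change of Cdk1 was -0.89 ± 0.28 for ZGW serum against control (adjusted p = 0.403). It was -0.58 ± 0.27 for high glucose against control (adjusted p = 0.688) and -0.30 ± 0.27 for ZGW serum against high glucose. Cdk7, the kinase that activates other CDKs and phosphorylates RNA polymerase II, read 49.6, 40.1 and 32.5 CPM in the control libraries, 29.4, 30.6 and 14.4 CPM in the high glucose libraries and 22.4, 35.6 and 25.4 CPM in the ZGW serum libraries, with every high glucose library below every control library (log2 fold change -0.71 ± 0.41, adjusted p = 0.741). Cdk2, the partner of cyclin E, had means of 23.97 ± 6.84, 14.2 ± 4.32 and 14.2 ± 4.02 CPM and differed from control by -0.75 ± 0.47 and -0.76 ± 0.47 (adjusted p = 0.771 and 0.622). Cdk4 and Cdk6, the partners of D cyclins, had standard errors of 0.63 to 0.84, and their groups overlapped. Cdk4 shares 17.01% of its 50-base stretches with other genes, among them Tspan31, and is uncertain. Of the CDK inhibitors, Cdkn1c was at 14.1, 10.3 and 15.6 CPM in the control libraries, 17.2, 10.9 and 10.7 CPM in the high glucose libraries and 16.6, 31.1 and 16.00 CPM in the ZGW serum libraries. All its ZGW serum libraries were above all control libraries, though by little in 2 of them (log2 fold change 0.67 ± 0.48, adjusted p = 0.682). An antisense transcript, Gm44732, shares 24.9% of its 50-base stretches. Cdkn1b overlapped in all comparisons.

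WEE2, an oocyte-specific form of WEE1, keeps CDK1 inactive in the oocyte and is known for its part in leaving meiosis at fertilisation. Wee2 (chr6:40439088-40466813, plus strand) read 777, 649 and 1089 CPM in the control libraries, 1326, 1086 and 1206 CPM in the high glucose libraries and 891, 864 and 959.6 CPM in the ZGW serum libraries. The high glucose libraries were all above the ZGW serum libraries, and the third control library reached the level of the second high glucose library. High glucose against control gave 0.52 ± 0.24 (adjusted p = 0.676) and ZGW serum against high glucose gave -0.41 ± 0.24 (adjusted p = 0.666). Wee2 held 94.7% to 99.0% of the counts of Wee1 and Wee2 in a library, and the groups overlapped. Wee1 itself was at 34.2 ± 2.13, 34.1 ± 13.2 and 27.99 ± 19.4 CPM. Pkmyt1, another kinase that inhibits CDK1, read 5.62, 9.84 and 10.6 CPM in the control libraries, 7.11, 12.9 and 11.2 CPM in the high glucose libraries and 11.1, 22.2 and 14.05 CPM in the ZGW serum libraries, with ZGW serum above control in every library by a log2 fold change of 0.86 ± 0.55 (adjusted p = 0.633). The CDC25 phosphatases overlapped between groups in every comparison. Cdc25b had group means of 36.6 ± 15.9, 27.2 ± 1.15 and 37.1 ± 10.5 CPM, and Cdc25a and Cdc25c had control means of 11.1 ± 4.65 and 16.2 ± 9.43 CPM. Cdc25c is uncertain, with 11.9% of its 50-base stretches shared.

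Of the mitotic and meiotic kinases, Aurka and Plk1 had their lowest group means with ZGW serum. Aurora A, the product of Aurka (chr2:172356190-172370535, minus strand), acts at centrosomes and spindle poles. Its level was 34.2, 20.9 and 25.00 CPM in the control libraries, 30.4, 51.7 and 58.2 CPM in the high glucose libraries and 14.1, 11.1 and 28.00 CPM in the ZGW serum libraries. ZGW serum libraries were all below the high glucose libraries, and control lay between, overlapping both. The differences were -1.40 ± 0.46 for ZGW serum against high glucose (adjusted p = 0.475), 0.81 ± 0.45 for high glucose against control (adjusted p = 0.74) and -0.59 ± 0.45 for ZGW serum against control. Plk1 (chr7:122159439-122169873, plus strand), a kinase that promotes entry into and progress through mitosis, read 34.6, 40.4 and 19.7 CPM in the control libraries, 33.2, 10.7 and 24.6 CPM in the high glucose libraries and 8.37, 16.1 and 11.02 CPM in the ZGW serum libraries. All ZGW serum libraries were below all control libraries, and the second high glucose library lay within the range of ZGW serum. The log2 fold change against control was -1.41 ± 0.53 (adjusted p = 0.448) and against high glucose -0.95 ± 0.52 (adjusted p = 0.65). A processed copy, Plk-ps1, and Gm44985 share 10.4% of the 50-base stretches of Plk1. Plk4, the kinase that starts centriole duplication, was the highest of the 4 at 35.2 CPM per kb. Its level was 126, 204 and 238 CPM in the control libraries, 409.7, 134 and 323 CPM in the high glucose libraries and 214, 257 and 264 CPM in the ZGW serum libraries, and its groups overlapped. Mos, the kinase that holds the oocyte in meiosis, ranged from 0.319 to 27.4 CPM with no separation of groups.

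In the chromosomal passenger complex, Aurora B or Aurora C works with survivin and INCENP to correct attachments of chromosomes to the spindle. Incenp, the scaffold of the complex (chr19:9872296-9899551, minus strand), read 3.87, 3.50 and 3.87 CPM in the control libraries, 8.10, 12.8 and 7.75 CPM in the high glucose libraries and 8.68, 15.7 and 36.5 CPM in the ZGW serum libraries. The 3 control libraries lay close to each other and below all 6 others. ZGW serum against control gave 2.44 ± 0.64 (adjusted p = 0.384), a level 5.41-fold higher, and high glucose against control gave 1.35 ± 0.62 (adjusted p = 0.685). DESeq2 gave an adjusted p of 0.00637 for ZGW serum against control. Without the third ZGW serum library the difference was 1.73 (adjusted p = 0.664). Birc5, the survivin gene, was at 1842, 1501 and 1139.7 CPM in the control libraries, 1381, 1404 and 1787 CPM in the high glucose libraries and 1586, 1111 and 2177 CPM in the ZGW serum libraries, and its differences of 0.03 ± 0.29, 0.09 ± 0.29 and 0.12 ± 0.29 were smaller than their standard errors. Aurkb and Aurkc overlapped between groups, with control means of 13.1 ± 9.26 and 74.5 ± 41.6 CPM. For Aurkc, 54.8% of 50-base stretches occur in other transcripts, among them Gm12463, so its level is uncertain.

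The 5 genes of the spindle assembly checkpoint, which holds the APC/C back until chromosomes are attached, were all lower with ZGW serum than under high glucose, with a median of -0.40 and a range of -0.74 to -0.15. None of these 5 differences had an unadjusted p under 0.05, and 49.9% of all genes were lower in this comparison. Ttk (chr9:83834689-83872389, plus strand), the kinase MPS1 that starts checkpoint signalling, read 80.7, 68.4 and 77.8 CPM in the control libraries, 163, 142 and 142 CPM in the high glucose libraries and 80.6, 45.2 and 142 CPM in the ZGW serum libraries. Each high glucose library was above each control library, and the third ZGW serum library reached the high glucose level. The difference was 0.98 ± 0.37 under high glucose (adjusted p = 0.627) and -0.74 ± 0.37 from high glucose to ZGW serum (adjusted p = 0.609). Mad2l1, the MAD2 gene whose product binds Cdc20, read 2419.8, 2605 and 2065 CPM in the control libraries, 2538, 1649.8 and 1995 CPM in the high glucose libraries and 2134, 829 and 1570.4 CPM in the ZGW serum libraries. The second ZGW serum library was the lowest of all, and the log2 fold change of ZGW serum against control was -0.65 ± 0.33 (adjusted p = 0.543). Bub1, Bub1b and Bub3 overlapped in all comparisons, with control means of 55.6 ± 31.2, 20.9 ± 8.74 and 54.3 ± 9.74 CPM. Slbp (chr5:33634952-33652574, minus strand), which binds the stem-loop of histone messenger RNA and supports histone supply in S phase, read 185, 266 and 187 CPM in the control libraries, 589.8, 279 and 410.5 CPM in the high glucose libraries and 212, 229 and 439 CPM in the ZGW serum libraries. High glucose libraries were all above control libraries by a log2 fold change of 1.00 ± 0.36 (adjusted p = 0.627), and ZGW serum overlapped both.

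Promoters of mitotic genes are known for a CCAAT box and a cell cycle genes homology region (CHR). The DREAM complex and its activating relatives act through the CHR. RefSeq windows of GRCm38.p6, from 250 bases before to 50 bases after a gene's start, were found for 41 of the 53 members, in 45 windows, and for 32851 windows in all. Both strands were searched for CCAAT, for the CHR as TTTGAA or TTTAAA, and for an E2F-type element as TTTNNCGC, and TTTAAA reads the same on both strands. CCAAT was in 29 of 45 member windows (64.4%) and in 37.4% of all windows. A CHR was in 19 (42.2%) against 27.6%, the E2F-type element in 8 (17.8%) against 5.17%, and both CCAAT and a CHR in 13 (28.9%) against 10.7%. The windows with both belonged to 12 genes: Aurka, Bub1b, Bub3, Ccnb1, Ccnb2, Cdc20, Cdk1, Cdkn1b, Espl1, Fbxo5, Plk1 and Ttk. A match is a run of letters and not a site shown to be bound.

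The 150 bases before the RefSeq start, 5′ to 3′ in the direction of the gene, are shown for 6 of these genes that are described above, and for Pttg1, whose window holds no match. The RefSeq start is not always the outermost start of the gene in GENCODE, from which the positions of genes are given here. For 5 of these 7 genes the starts lay within 50 bases of each other. The RefSeq start of Fbxo5 lies 135 bases downstream of the GENCODE start, so that 135 of the 150 bases shown fall inside the GENCODE gene. For Pttg1 it lies 270 bases downstream, and the whole window falls inside the GENCODE gene. The lack of a match there concerns that window alone, and the bases before the GENCODE start of Pttg1 were not searched. Of all 45 member windows, 28 had starts within 50 bases of each other. Capitals mark CCAAT or its complement ATTGG and the CHR letters TTTGAA or TTTAAA. The stretches are chr10:5805466-5805615 for Fbxo5, chr2:172370571-172370720 for Aurka, chr10:69352913-69353062 for Cdk1, chr4:118437344-118437493 for Cdc20 and chr11:43425982-43426131 for Pttg1, all on the minus strand, and chr7:122159285-122159434 for Plk1 and chr9:83834539-83834688 for Ttk on the plus strand.
Fbxo5: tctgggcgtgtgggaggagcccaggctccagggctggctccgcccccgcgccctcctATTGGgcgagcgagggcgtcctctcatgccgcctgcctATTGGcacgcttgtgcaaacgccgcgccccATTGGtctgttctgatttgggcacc
Aurka: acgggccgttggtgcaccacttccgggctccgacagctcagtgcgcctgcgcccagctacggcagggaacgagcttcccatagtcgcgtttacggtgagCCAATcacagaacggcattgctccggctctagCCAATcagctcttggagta
Plk1: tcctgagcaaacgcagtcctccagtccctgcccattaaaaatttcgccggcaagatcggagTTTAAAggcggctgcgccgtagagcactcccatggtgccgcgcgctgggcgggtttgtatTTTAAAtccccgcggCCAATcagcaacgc
Cdk1: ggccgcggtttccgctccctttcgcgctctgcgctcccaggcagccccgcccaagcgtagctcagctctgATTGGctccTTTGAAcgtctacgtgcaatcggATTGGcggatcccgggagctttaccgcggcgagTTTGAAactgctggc
Ttk: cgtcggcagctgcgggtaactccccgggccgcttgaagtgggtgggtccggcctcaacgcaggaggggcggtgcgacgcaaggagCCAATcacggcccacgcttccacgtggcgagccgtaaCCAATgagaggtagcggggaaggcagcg
Cdc20: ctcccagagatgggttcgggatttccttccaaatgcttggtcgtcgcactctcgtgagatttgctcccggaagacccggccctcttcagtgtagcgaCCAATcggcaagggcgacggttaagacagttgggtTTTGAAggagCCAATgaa
Pttg1: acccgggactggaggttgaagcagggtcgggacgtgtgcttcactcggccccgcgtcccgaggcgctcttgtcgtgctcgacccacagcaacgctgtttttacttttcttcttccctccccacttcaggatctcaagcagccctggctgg

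Fbxo5 has 3 CCAAT matches, which begin 93, 55 and 25 bases before the RefSeq start, and its CHR matches begin 3 and 12 bases after that start, beyond the stretch shown. Aurka and Ttk likewise have CCAAT matches before the start and CHR matches after it. In Plk1 and Cdk1 both kinds stand before the start. Plk1 has a further CHR match 30 bases after the start, and Cdk1 has another CCAAT match 208 bases before it. Cdc20 has a CHR match between CCAAT matches 53 and 8 bases before the start. With ZGW serum against high glucose, 5 of these 6 genes were lower, with log2 fold changes of -1.38 for Fbxo5, -1.40 for Aurka, -0.95 for Plk1, -0.74 for Ttk and -0.30 for Cdk1, while Cdc20 had 0.99. These 6 were picked from the 12 because they are described above, in part for those values. The 12 members with both elements had a median of 0.08 for high glucose against control, -0.26 for ZGW serum against high glucose (9 of 12 lower) and -0.26 for ZGW serum against control (8 of 12 lower). The 28 tested members with a window that lacked one or both had medians of -0.06, -0.03 (15 of 28 lower) and 0.11 (12 of 28 lower). These medians are descriptions, and their difference was not tested.

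Around the members, 139 other genes of the cell cycle in 6 lists were followed, of which 136 were tested and 0 passed the threshold. From control to high glucose, 56 were lower and 80 higher, with a median of 0.18. From high glucose to ZGW serum, 99 were lower and 37 higher, with a median of -0.27. From control to ZGW serum, 82 were lower and 54 higher, with a median of -0.14. The first and second of these counts share the high glucose libraries. At an unadjusted p under 0.05, ZGW serum against high glucose gave 12 lower of 136 (8.82%, background 4.89%) and 6 higher (4.41%, background 3.8%). The groups did not overlap for 25 lower genes (18.4%, background 8.26%) and 7 higher genes (5.15%, background 9.08%). The lower shares were above the background of all genes, which was not tested. The members themselves, with a median of -0.08 in that comparison, leaned less to the lower side than these lists, and the difference between the lists was not tested.

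**Figure D4:**
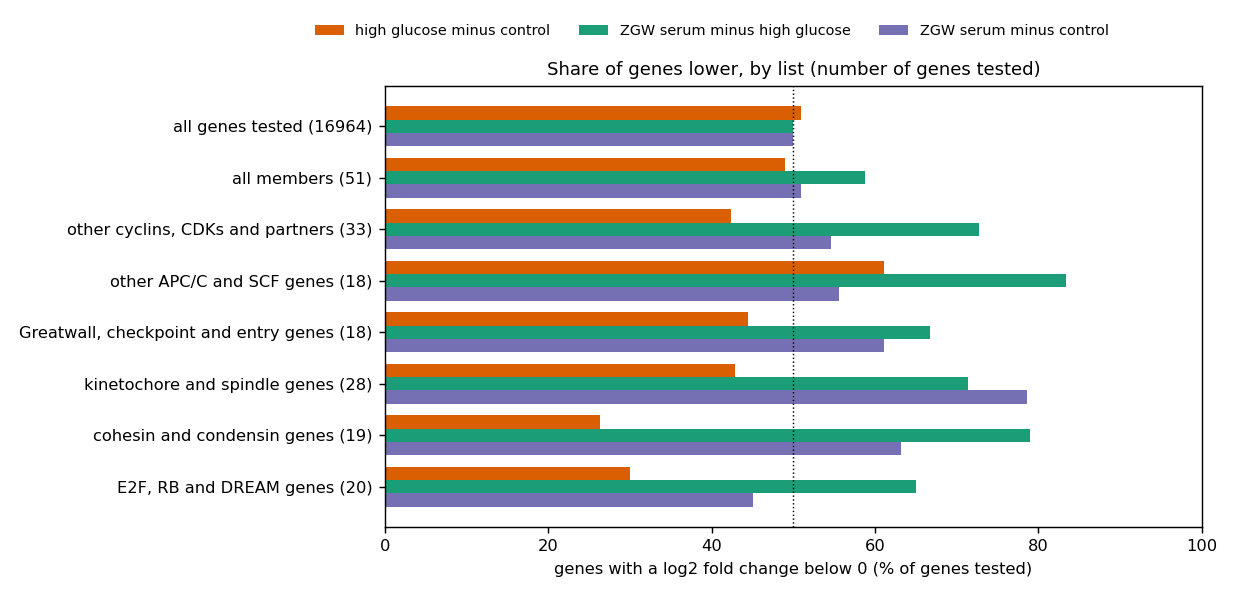
Percent of tested genes with a log2 fold change below 0 (horizontal axis), for all genes, for the members and for 6 lists of other cell cycle genes, with the number tested in brackets and 1 bar for each comparison; the dotted line marks 50%. All genes lie at 51.0%, 49.9% and 49.97%, the members at 49.0%, 58.8% and 51.0%, and the 6 lists of other genes lie between 65.0% and 83.3% for ZGW serum against high glucose.

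Kinetochore and spindle genes were lower with ZGW serum than under high glucose in 20 of 28, with a median of -0.43. Groups did not overlap for 8 lower genes of 28 (28.6%, background 8.26%) and for 0 higher ones (background 9.08%). The smallest p was that of Spc25, a kinetochore subunit (log2 fold change -0.83 ± 0.30, adjusted p = 0.512). Of the cohesin and condensin genes, which hold and fold chromosomes, 14 of 19 were higher under high glucose than in control (median 0.47) and 15 of 19 were lower with ZGW serum than under high glucose (median -0.45). Nipbl, which loads cohesin, differed by 1.27 ± 0.44 under high glucose (adjusted p = 0.627). Among E2F, RB and DREAM genes, 14 of 20 were higher under high glucose than in control. There the smallest p was that of Rb1, the retinoblastoma gene that restrains E2F factors (0.69 ± 0.27, adjusted p = 0.632).

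Other subunits and partners of the APC/C and of the SCF ubiquitin ligases were lower with ZGW serum than under high glucose in 15 of 18, with a median of -0.34. The smallest p there belonged to a higher gene, Anapc13, a small APC/C subunit, at 2.28 ± 0.70 (adjusted p = 0.465). Other cyclins, CDKs and their partners were lower in 24 of 33, and the smallest p was again that of a higher gene, Cks2, a small CDK-binding protein, at 0.74 ± 0.27 (adjusted p = 0.523). Of the Greatwall, checkpoint and entry genes, 12 of 18 were lower with ZGW serum than under high glucose. Ppp1ca, a catalytic subunit of protein phosphatase 1, was lower with ZGW serum than in control by -1.27 ± 0.32 (adjusted p = 0.375). The 2-cell markers were lower with ZGW serum than under high glucose in 8 of 8, with a median of -1.05, and lower than in control in 5 of 8, with a median of -0.92. Their part in the levels of the cell cycle genes was not tested.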

How the data were processed

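For 9 libraries the authors deposited whole-number read counts by gene symbol, without normalisation. Per the submitters' processing notes, Trim Galore and the build mm10 were used. Aligner, counter, annotation and strand setting: not given in the sources used here. Groups and replicates came from the labels. The members, the gene lists and the tests were chosen with earlier results of these data known. One edgeR fit of all 9 libraries (edgeR 4.0.16, R 4.3.3) used TMM factors, a minimum count of 10, 1 mean per group and the robust quasi-likelihood test, with Benjamini-Hochberg adjustment over 16964 genes. Its common biological coefficient of variation was 0.731. CPM are counts per library total times TMM factor. The fit was also run on counts simulated with its own estimates of the spread, for high glucose against control alone. The outcome is not given here, so that run lends no support to the results. No list was tested as a set. Named members are, in each role, those of highest CPM and of smallest p, and every member with an unadjusted p under 0.05. Other separated members were named after their values were seen, and Ccne1 was given beside its paralog Ccne2 outside this rule. Positions, exon lengths and shared 50-base stretches (above 10% is reported as uncertain) came from GENCODE M21, and promoters from RefSeq GRCm38.p6, whose starts can differ from those of GENCODE. Two-sided exact permutation tests were used for shares. Alternatives were DESeq2 1.42.0, limma-voom (limma 3.58.1), RLE factors, other filters, fits of 2 groups, a replicate block and libraries left out. Totals were 11934924 to 16916343 counts per library. The standard errors come from the fit of all 9 libraries, in which the 3 groups share 1 estimate of a gene's spread.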

Additional observations from a re-analysis of the deposited data

How the results depend on the processing

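Calls depended on the tool. DESeq2 called 129 genes for high glucose against control, 241 for ZGW serum against high glucose and 348 for ZGW serum against control, where edgeR called 0. For ZGW serum against control, limma-voom, no filter on low counts and a stricter filter each called 1 gene. The 15 differences of single members with an unadjusted p under 0.05 gave 210 values under the alternatives, all with their direction kept. Each difference was picked from these same counts, and the alternatives refit all or most of the same libraries. A kept direction therefore adds no support. DESeq2 called 3 of the 210 values (Fbxo5 against both groups and Incenp against control), and 31 had an unadjusted p above 0.05. The median of the members for ZGW serum against control, -0.07, was -0.27 without the first control and the third ZGW serum libraries together. It was 0.061 with members of little shared sequence alone, an alternative chosen after seeing the data. Leaving out 1 library at a time it ranged from -0.19 to 0.10, with members lower from 21 to 32; the cause was not tested. Same-numbered libraries had correlations of deviations from -0.0065 to 0.104, and 6 of 9 libraries correlated best with their own number. No label says that a number marks a shared batch, and low correlations cannot exclude one, so whether the numbers pair the libraries is not known. With the replicate number as a block (replicate block), 0 genes were called in each comparison and the members' medians were 0.01, -0.10 and -0.01. Some tested members had few counts in their lowest library, 0 for Ccnb3, 3 for Ccnd1, 6 for Mos and 9 for Anapc4. Anapc2 had 10 there, and Cdk4 and Anapc7 had 12. Depth was not varied. Members whose sequence is shared with copies or overlapping genes are uncertain.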
